A study of Homo sapiens with 30 samples.

Results

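A set of 9 genes of lactate and pyruvate handling was followed in 3 established human cancer lines kept in acidic or neutral medium. They were taken by symbol from a table of 38122 genes, and all 9 were found: the lactate dehydrogenase subunits LDHA and LDHB, the monocarboxylate carriers SLC16A1, SLC16A3 and SLC16A7, the carrier chaperones BSG and EMB, and the mitochondrial pyruvate carrier subunits MPC1 and MPC2. RNA sequencing covered SiHa (squamous carcinoma of the cervix), FaDu (squamous carcinoma of the hypopharynx) and HCT116 (colon carcinoma), with 5 libraries per line at pH 6.5 and 5 at pH 7.4. Both media were DMEM with 10 mM glucose, 2 mM glutamine, 10% serum and 25 mM each of HEPES and PIPES, at 37 °C in 5% CO2, and the cells at pH 6.5 had lived at that pH for at least 1 month. No line carried a named genetic change. Separate cultures or adaptations are not recorded for the libraries, so the p-values measure the spread between libraries, which may be technical. The series concerns tumour acidosis, and the comparison asked how the messenger RNA of each gene differed between the pH levels within each line.

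Lactate dehydrogenase interconverts pyruvate and lactate together with NADH and NAD+. It is a tetramer of LDHA and LDHB subunits: LDHA is the subunit typical of muscle and of many tumours, and LDHB is typical of heart. The SLC16 carriers of this set move lactate or pyruvate together with a proton, so that export of lactate also exports acid. SLC16A1 encodes MCT1, SLC16A7 encodes the high-affinity carrier MCT2, and SLC16A3 encodes MCT4, which is known for lactate export from glycolytic cells and as a target of hypoxia-inducible factor. Basigin (BSG) brings MCT1 and MCT4 to the plasma membrane, and embigin (EMB) is the usual partner of MCT2. MPC1 and MPC2 together form the carrier that takes pyruvate into mitochondria.

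LDHA and SLC16A3 were the members lower at pH 6.5 with the lowest adjusted p in SiHa and in HCT116, respectively. LDHB did not move with LDHA in SiHa, so 1 promoter window of each of these 3 genes is shown. Each sequence is the 250 bases before a RefSeq transcription start on GRCh38.p14, read 5′ to 3′ on the strand of the gene. Capitals mark ACGTG or GCGTG on either strand, so they also show as CACGT or CACGC; these are the core letters of the hypoxia response element, and ACGTG also lies inside the E-box CACGTG.
LDHA, chr11:18394313-18394562, plus strand: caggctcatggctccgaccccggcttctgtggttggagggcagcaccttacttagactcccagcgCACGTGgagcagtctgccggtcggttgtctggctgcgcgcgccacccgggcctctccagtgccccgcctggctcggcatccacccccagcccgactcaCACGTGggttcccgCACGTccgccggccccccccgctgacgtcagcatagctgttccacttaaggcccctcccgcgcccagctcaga
SLC16A3, chr17:82228792-82229041, plus strand: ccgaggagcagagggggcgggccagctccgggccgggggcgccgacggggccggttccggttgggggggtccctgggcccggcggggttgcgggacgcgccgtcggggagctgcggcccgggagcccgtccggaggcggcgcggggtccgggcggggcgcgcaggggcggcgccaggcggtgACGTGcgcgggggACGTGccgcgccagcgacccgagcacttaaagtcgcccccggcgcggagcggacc
LDHB, chr12:21657843-21658092, minus strand: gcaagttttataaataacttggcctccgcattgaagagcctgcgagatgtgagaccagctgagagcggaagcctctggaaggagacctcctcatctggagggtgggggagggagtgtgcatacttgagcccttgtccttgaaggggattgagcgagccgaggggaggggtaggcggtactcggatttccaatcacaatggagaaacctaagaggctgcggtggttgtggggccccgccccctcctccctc
The LDHA window held 3 capital stretches, of which 2 spelled CACGTG, and it was 69.6% G and C. The SLC16A3 window held 2 stretches in a sequence of 83.2% G and C, and the LDHB window, at 58.0%, held none. Over 35116 promoter windows of this table, 18.5% held ACGTG, 32.2% held GCGTG, 43.2% held either and 6.34% held CACGTG. RefSeq gave 2 starts for LDHA, both with a match, and 5 for SLC16A3, of which 3 had a match. The windows shown for LDHA and SLC16A3 are the only ones of those genes that held ACGTG. BSG had 5 matches at 1 of its 2 starts, MPC1 had 2, and the windows of SLC16A7 and MPC2 had none. A match is a description of the letters only. SLC16A1 and EMB had no entry.

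The line of each library was read from genes restricted to 1 line (24 for FaDu, 28 for SiHa and 33 for HCT116), as a median percentage of their level in that line. In 21 libraries, the genes of the labelled line stood at 78.8% or more and those of the other lines at 0.0656% or less. The genes were chosen, and their level set, from FaDu and SiHa at pH 6.5 and HCT116 at pH 7.4, so those libraries match their line by construction. The check bears only on the other kept libraries. There the labelled line stood at 78.8 to 81.4% in SiHa at pH 7.4, 98.7% in FaDu pH 7.4 replicate 1 and 96.5 and 87.8% in HCT116 at pH 6.5. In addition, 4 FaDu libraries labelled pH 7.4 carried HCT116 genes at 28.2 to 77.5% of their level, and 3 HCT116 libraries labelled pH 6.5 carried SiHa genes at 35.9 to 103%. A further 2 SiHa libraries at pH 7.4 held 2817 and 2863 normalised counts of the mesenchymal gene VIM against 2.04 to 165 in the other 3. These 9 libraries were set apart, which left SiHa with 5 libraries at pH 6.5 and 3 at pH 7.4, FaDu with 5 and 1, and HCT116 with 2 and 5. Libraries held 21 to 55.7 M reads, and a count of 0 (3 reads allowed) left up to 1.90 to 5.01 normalised counts, for counting error only. The 7 colon markers summed to 1836 to 1974 at pH 6.5 and 1501 to 2088 at pH 7.4 in HCT116 and to 56.33 at most in the other lines. CDX2, a colon transcription factor, ran from 700.1 to 1030 in HCT116 and did not exceed 1.041 elsewhere, while CDX1 was at 0 in HCT116. LGALS4 (3.685 to 12.55 in HCT116, 8.329 to 22.75 in FaDu) and CDH17 (1.145 to 13.07 in HCT116, 0.8748 to 7.633 in FaDu) did not set HCT116 apart. Others moved with pH in HCT116: HNF4A was 7.984 to 14.88 at pH 6.5 against 566 to 712.8, VIL1 1.141 to 2.289 against 24.57 to 103.7, and KRT20 916.7 to 990.1 against 175.7 to 358. Of the 6 squamous markers, KRT5 ran from 225800 to 392700 and TP63 from 5517 to 7038 in FaDu, whereas SiHa held up to 87.58 and 58.66. KRT17, in turn, ran from 14800 to 74800 in SiHa and from 21940 to 47400 in FaDu. PTPRC, the pan-leukocyte marker, stayed at 9.941 or less in every kept library, while CD14, on the same list, ran from 707.6 to 1881 in SiHa, 83.96 to 171.4 in FaDu and 8.012 to 26.48 in HCT116.

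Of the 9 genes, 1 changed with pH in SiHa and 3 in HCT116, all of them lower at pH 6.5. In SiHa, 1 of the 7 tested genes was lower at pH 6.5 (LDHA) and 0 were higher. In the same comparison 16.2% of all tested genes were lower and 15.0% higher. In HCT116, 3 of 9 were lower (SLC16A1, SLC16A3 and SLC16A7) and 0 higher, where the background was 11.1% lower and 9.11% higher. In FaDu 0 of 9 passed, with a background of 3.12% lower and 4.24% higher. These are limma calls at an adjusted p under 0.05 over all genes tested. At an unadjusted p under 0.05, limma gave 1 higher gene in SiHa (LDHB), 0 higher in HCT116 and 3 lower in FaDu. edgeR and DESeq2 gave 1 higher in SiHa, 0 higher in HCT116 and 0 of either direction in FaDu. The median log2 change of the tested members was -0.000226 in SiHa, -0.515 in FaDu and -0.281 in HCT116, beside -0.012, -0.0133 and -0.011 over all genes tested. EMB and SLC16A7 fell below the filter of a mean of 10 in SiHa and were not tested there.

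**Figure D1:**
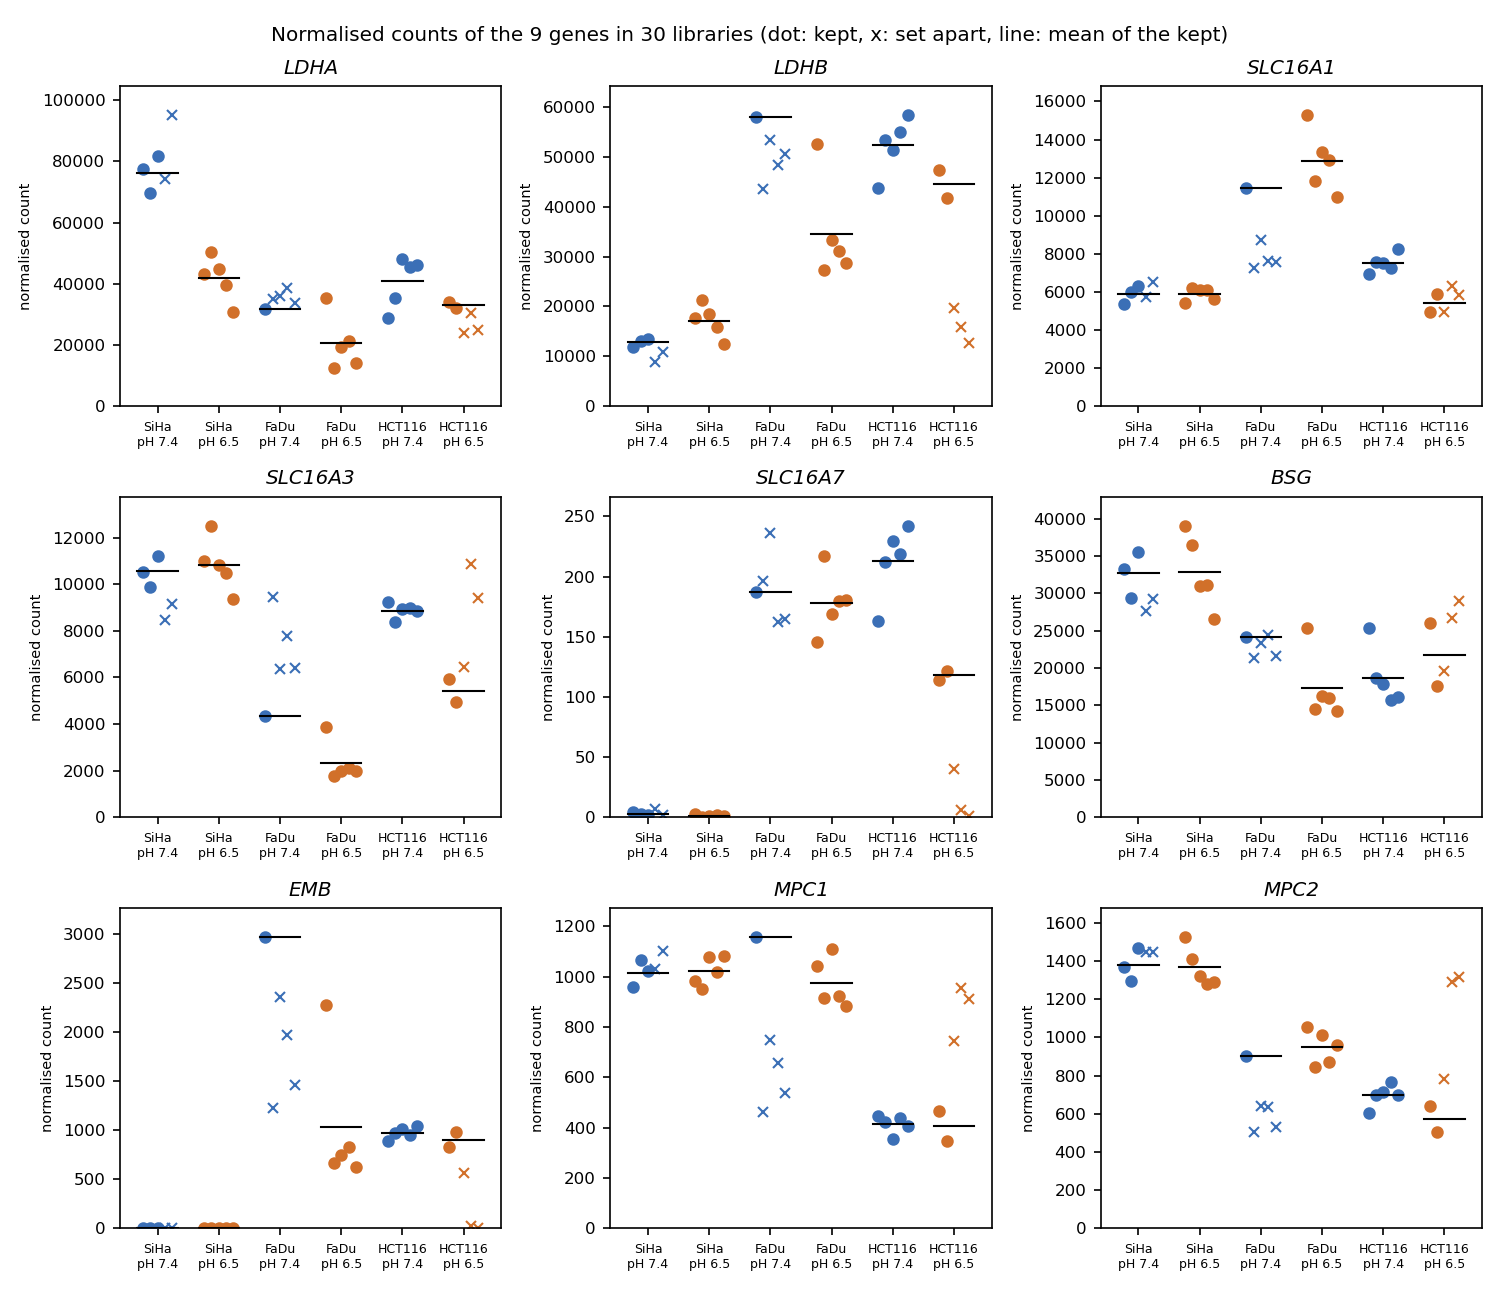
Normalised counts (vertical axis, linear from 0) of the 9 genes in all 30 libraries, by line and pH; dots are kept libraries, crosses are libraries set apart, and the line is the mean of the kept libraries. LDHA in SiHa ran from 30889 to 50373 at pH 6.5 and from 69677 to 81623 at pH 7.4, and FaDu pH 6.5 replicate 1 lay beside the FaDu pH 7.4 library for EMB (2276 and 2965).

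LDHA, the subunit that dominates in many tumours, was lower at pH 6.5 in SiHa. Its normalised counts were 43149, 50373, 44867, 39628 and 30889 in the 5 libraries at pH 6.5, and 77529, 69677 and 81623 in the 3 at pH 7.4. The groups did not overlap. The means were 41781 ± 7220 (SD, n = 5) and 76277 ± 6071 (SD, n = 3). The change was -0.88 ± 0.14 on the log2 scale, 0.542-fold, with a limma adjusted p of 0.00147. The call remained when any single library was left out, with limma adjusted p from 0.000753 to 0.0108. The 2 SiHa libraries set apart, at 74096 and 95108, also lay above every library at pH 6.5, and with all 10 as labelled the change was -0.94 (limma adjusted p = 0.000186). In that form 1 member was lower and 1 higher (LDHB), and limma called 21.1% of all genes lower and 19.7% higher.

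LDHB, the heart-type subunit, did not follow LDHA in SiHa. It stood at 17655, 21287, 18470, 15960 and 12507 at pH 6.5 and at 11922, 13135 and 13489 at pH 7.4. In all, 4 of the 5 acidic libraries lay above all 3 neutral ones, and replicate 7, which was also lowest for LDHA, lay among them. The change was 0.40 ± 0.15 (95% interval 0.08 to 0.72) with a limma adjusted p of 0.059, so it was not called. It passed without that library (0.51, limma adjusted p = 0.00621), with all libraries as labelled (0.56, limma adjusted p = 0.00999), and by edgeR (adjusted p = 0.0445) and DESeq2 (adjusted p = 0.0285).

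The share of LDHA in the summed counts of LDHA and LDHB varied little within the acidic SiHa libraries. It was 71.0, 70.3, 70.8, 71.3 and 71.2% at pH 6.5 and 86.7, 84.1 and 85.8% at pH 7.4. Replicate 7, low for both genes, lay within the range of the other acidic libraries. LDHA counts were 2.37 to 2.48 times those of LDHB at pH 6.5 and 5.30 to 6.50 times at pH 7.4, with no overlap. The 2 libraries set apart reached 89.4 and 89.8%. In FaDu the share was 31.6 to 40.7% at pH 6.5 and 35.5% in the pH 7.4 library, and in HCT116 it was 41.8 and 43.4% against 39.9 to 48.4%, so both lines overlapped between pH levels. These shares are given as a description, with no test.

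**Figure D2:**
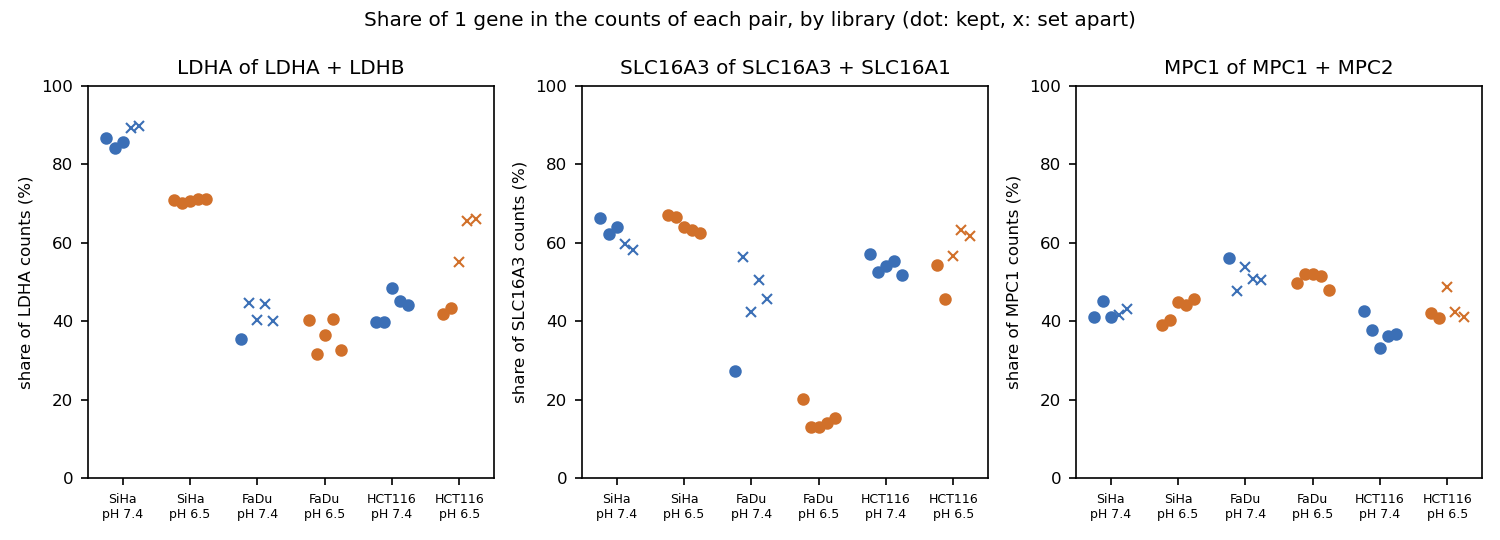
Share of 1 gene in the summed normalised counts of a pair (percent, vertical axis) by line and pH: LDHA with LDHB, SLC16A3 with SLC16A1, and MPC1 with MPC2; dots are kept libraries and crosses libraries set apart. The LDHA share of SiHa sits at 70.3 to 71.3% at pH 6.5, under the 84.1 to 86.7% of the kept libraries at pH 7.4.

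In FaDu, both subunits divided the acidic libraries. LDHA stood at 35381 in pH 6.5 replicate 1 and at 12609, 19212, 21406 and 14006 in replicates 2 to 5, against 31882 in the single library at pH 7.4. LDHB stood at 52491 in replicate 1 and at 27247, 33315, 31169 and 28632 in the others, against 57863. Replicate 1 was thus close to the neutral library for both genes. The changes over all 5 were -0.74 ± 0.49 for LDHA (limma adjusted p = 0.363) and -0.79 ± 0.33 for LDHB (limma adjusted p = 0.168). Without replicate 1 they were -0.96 ± 0.27 (limma adjusted p = 0.0297) and -0.95 ± 0.12 (limma adjusted p = 0.00157).

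HCT116 showed no called change of either subunit. LDHA was 34038 and 31998 at pH 6.5 and ran from 28979 to 48039, with a median of 45575, at pH 7.4. LDHB was 47337 and 41725 against a range of 43718 to 58338 with a median of 53424. Both acidic libraries lay inside the neutral range for LDHA, and 1 of the 2 did for LDHB. The changes were -0.28 (95% interval -0.69 to 0.13) and -0.23 (-0.53 to 0.07).

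SLC16A3, the MCT4 gene, was lower at pH 6.5 in HCT116. It stood at 5926 and 4938 at pH 6.5 and at 9225, 8381, 8918, 8963 and 8867 at pH 7.4. The groups did not overlap, and the neutral libraries lay close together, with means of 5432 ± 699 (SD, n = 2) and 8871 ± 307 (SD, n = 5). The log2 change was -0.71 ± 0.12, 0.610-fold, with a limma adjusted p of 0.00126. It stayed called when any 1 kept library was left out (limma adjusted p 0.00127 to 0.0134). With the 3 libraries that carried SiHa genes included, the call was lost (-0.30, limma adjusted p = 0.275), and 2 members were lower and 0 higher against a background of 9.62% and 8.56% (1 was higher at limma's unadjusted p under 0.05). These 3 held 6434, 10881 and 9401, and SiHa itself held 9382 to 12492.

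SLC16A1, the MCT1 gene, moved the same way in HCT116 with a smaller change. It stood at 4958 and 5892 at pH 6.5 and at 6930, 7563, 7528, 7253 and 8261 at pH 7.4. The groups did not overlap. The log2 change was -0.47 ± 0.12, 0.721-fold, with a limma adjusted p of 0.0174. Without pH 6.5 replicate 1 the call was lost (-0.35), so it rested on that library. It was also lost when the replicate number was fitted as a block.

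SLC16A7, the gene of the high-affinity carrier MCT2, was 114 and 122 at pH 6.5 in HCT116 and 163, 212, 229.6, 219 and 242 at pH 7.4. The groups again did not overlap, at levels far under those of the other 2 carriers. The log2 change was -0.83 ± 0.20, 0.562-fold (limma adjusted p = 0.0127). The call was lost without pH 6.5 replicate 1 and when the replicate number was fitted as a block. It was also lost where 1 fit over all 21 kept libraries estimated the spread (limma adjusted p = 0.0941). The squamous markers moved with pH in the same libraries: 5 of 6 had a mean of at least 10 at pH 6.5 and 2 of 6 at pH 7.4, with a summed level of 1973 to 2256 against 55.27 to 135.1. None of the 6 was at 0, the sum in FaDu was at least 273000, the colon markers HNF4A, VIL1 and KRT20 moved as given above, and their part in the results for HCT116 was not tested.

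The carriers did not differ detectably between pH levels in SiHa. SLC16A3 ran from 9382 to 12492 at pH 6.5 and from 9893 to 11225 at pH 7.4, a change of 0.03 (95% interval -0.18 to 0.25). SLC16A1 ran from 5397 to 6233 and from 5369 to 6301, a change of 0.00 (-0.19 to 0.19). The ranges of both genes overlapped almost fully. SLC16A7 was near the detection limit, at 0 to 2.7 at pH 6.5 and 2.26 to 4.07 at pH 7.4, where 1 library (4.07 against its limit of 3.06) lay above it, and no fold is given. In the same SiHa libraries the simple epithelium markers (4 of 4 with a mean of at least 10 in both groups, none at 0) summed to 31480 to 97850 at pH 6.5 and 142500 to 178500 at pH 7.4, and their part in the SiHa results was not tested.

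In FaDu, SLC16A3 divided the libraries as LDHA and LDHB did. It stood at 3877 in pH 6.5 replicate 1, at 1769, 1989, 2121 and 1992 in replicates 2 to 5, and at 4331 at pH 7.4. The change over all 5 was -0.94 ± 0.38 (limma adjusted p = 0.154), and without replicate 1 it was -1.14 ± 0.11 (limma adjusted p = 0.0005). SLC16A1 ran from 10996 to 15282 at pH 6.5, around 11476 at pH 7.4, with a change of 0.16 (95% interval -0.26 to 0.58), and SLC16A7 ran from 146 to 217 around 187, with -0.08 (-0.63 to 0.48). As a share of both carriers, SLC16A3 made up 20.2% in replicate 1, 13.0 to 15.3% in the other 4 acidic libraries and 27.4% at pH 7.4, the lowest share of the 3 lines (62.2 to 67.0% in SiHa, 45.6 to 57.1% in HCT116).

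BSG, the chaperone that MCT1 and MCT4 need at the membrane, was not called in any line with all kept libraries. In SiHa it ran from 26613 to 39030 at pH 6.5 and from 29358 to 35625 at pH 7.4, and the change was 0.00 (95% interval -0.29 to 0.28). In HCT116 it was 26027 and 17590 at pH 6.5 and 25321, 18661, 17809, 15735 and 16138 at pH 7.4, a change of 0.21 (-0.21 to 0.64). The 2 libraries numbered 1 were the high ones, 1 at each pH. In FaDu it stood at 25372 in pH 6.5 replicate 1, at 14256 to 16253 in the other 4 and at 24123 at pH 7.4. The change was -0.51 ± 0.29 (limma adjusted p = 0.295), and without replicate 1 it was -0.66 ± 0.10 (limma adjusted p = 0.00304).

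EMB, the partner of MCT2, was not detected in SiHa. All 8 kept SiHa libraries, and the 2 set apart, counted 0 reads, which allows up to 2.56 to 4.2 normalised counts at pH 6.5 and 2.84 to 3.38 at pH 7.4. At pH 7.4, its mean of 973 in HCT116 was at least 288-fold higher than that limit, and at pH 6.5 the FaDu mean of 1028 was at least 245-fold higher. In HCT116, EMB was 823 and 982 at pH 6.5 and 889.7 to 1046 at pH 7.4, a change of -0.11 (95% interval -0.41 to 0.19). The 3 libraries labelled HCT116 that carried SiHa genes held 565, 20.1 and 5.54.

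FaDu showed the widest split of EMB. It stood at 2276 in pH 6.5 replicate 1, at 665, 743, 831 and 625 in replicates 2 to 5, and at 2965 at pH 7.4. The change over all 5 was -1.72 ± 0.63 (limma adjusted p = 0.129). Without replicate 1 it was -2.06 ± 0.16, 0.240-fold, with a limma adjusted p of 0.000268, the largest change among the members tested there.

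FaDu pH 6.5 replicate 1 stood apart over the whole table. Its median absolute log2 difference over 12692 genes was 0.255 from the pH 7.4 library and 0.243 to 0.328 from the other 4 acidic libraries. Those 4 differed among themselves by 0.0822 to 0.139 and from the pH 7.4 library by 0.317 to 0.341. Libraries of 1 group differed by up to 0.274 in SiHa at pH 6.5 and by up to 0.267 in HCT116 at pH 7.4. Its FaDu-restricted genes stood at 107% of their level and those of HCT116 at 0.0321%, though replicate 1 was among the libraries used to choose these genes. Without it, 5 of the 9 genes were lower (EMB, SLC16A3, LDHA, LDHB and BSG) and none was higher, where limma called 18.7% of all genes lower and 17.8% higher. In either form the comparison rests on 1 library at pH 7.4, and limma assumes that it varied like the others. Each library at pH 6.5 was left out in turn, and the form without replicate 1 was singled out after the values were seen. Replicate 1 was the acidic library nearest the pH 7.4 library, so leaving it out widens the gap by construction. With all libraries as labelled, 5 genes were lower and 2 higher (SLC16A1 at 0.61 and MPC2 at 0.58) against a background of 22.3% and 24.0%; the 4 libraries that carried HCT116 genes held 7277 to 8710 of SLC16A1 and 506 to 641 of MPC2.

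**Figure D3:**
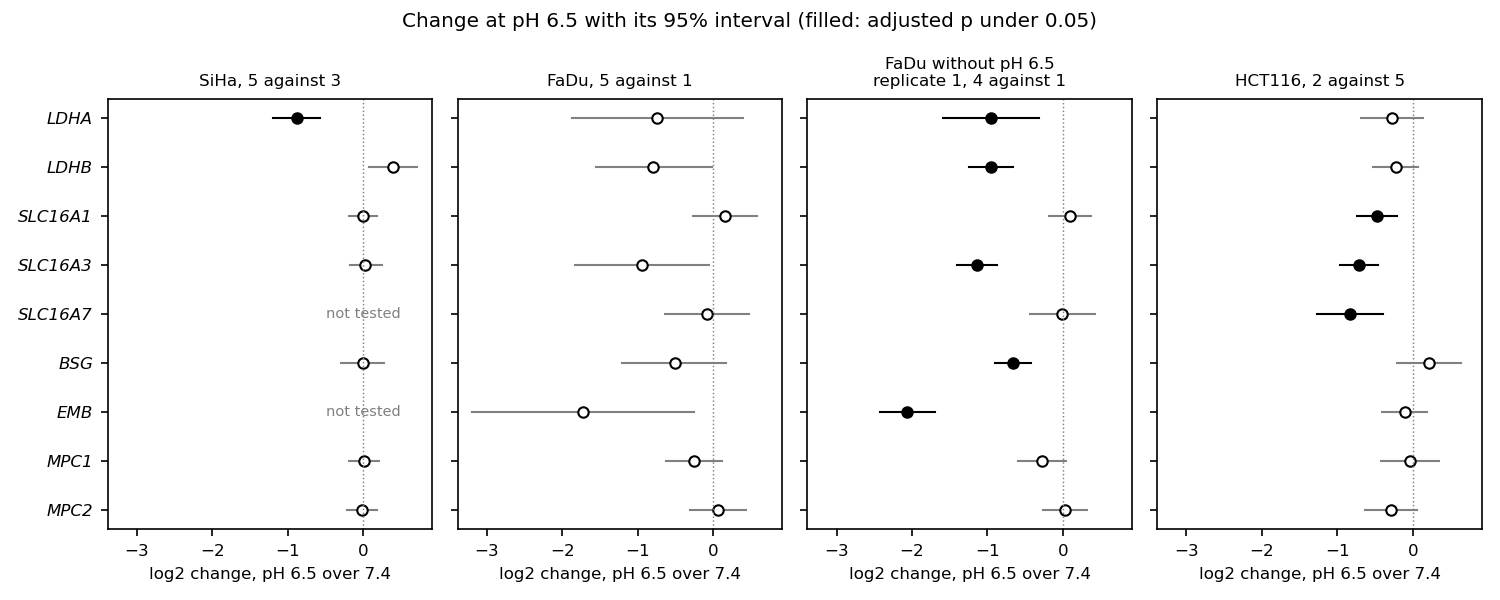
Log2 change at pH 6.5 over pH 7.4 (horizontal axis) with its 95% interval for the 9 genes, in SiHa, in FaDu with and without pH 6.5 replicate 1, and in HCT116; filled points have a limma adjusted p under 0.05. LDHA is filled in SiHa, SLC16A1, SLC16A3 and SLC16A7 in HCT116, and 5 genes in FaDu once replicate 1 is left out.

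The mitochondrial pyruvate carrier was not called in any line. MPC1 ran from 951 to 1080 at pH 6.5 and 959 to 1068 at pH 7.4 in SiHa, a change of 0.01 (95% interval -0.19 to 0.21). MPC2 ran from 1282 to 1525 and from 1296 to 1468 there, a change of -0.01 (-0.22 to 0.19). Both ranges overlapped widely. In FaDu, MPC1 ran from 885 to 1108 beside 1157 at pH 7.4, and MPC2 from 845 to 1054 around 902, with changes of -0.25 (-0.62 to 0.12) and 0.07 (-0.31 to 0.44). Unlike the 5 genes above, MPC1 and MPC2 did not set FaDu replicate 1 apart, which held 1042 and 1054. In HCT116, MPC1 was 468 and 346 against 354 to 448, and MPC2 was 641 and 502 against 602 to 765, with changes of -0.04 (-0.42 to 0.34) and -0.29 (-0.63 to 0.05).

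By limma, the pH response differed between lines for 4 of the 9 genes: LDHB, SLC16A1, SLC16A3 and EMB. The limma F-test of the interaction over the 21 kept libraries gave adjusted p of 0.0156, 0.0195, 0.0202 and 0.0301, and it called 33.1% of all tested genes. Between pairs of lines, limma called the pH effect of 7.96% of genes higher and 7.82% lower in FaDu than in SiHa, 8.15% and 8.81% in HCT116 than in FaDu, and 13.2% and 12.7% in HCT116 than in SiHa. For LDHB, the effect was lower in FaDu than in SiHa by a log2 difference of -1.19 (limma adjusted p = 0.0138). For SLC16A1, the effect in HCT116 was below that in FaDu (-0.63, limma adjusted p = 0.0267) and in SiHa (-0.47, limma adjusted p = 0.027). For SLC16A3, both FaDu (-0.98, limma adjusted p = 0.0311) and HCT116 (-0.75, limma adjusted p = 0.0353) lay below SiHa. For EMB, HCT116 lay above FaDu (1.61, limma adjusted p = 0.045). SiHa had no EMB reads, so its effect of 0 carries no information on a response. The SiHa libraries at 0 also have no spread, yet they enter the pooled spread behind both limma tests of EMB, which lowers their p. LDHA, called in SiHa alone, did not pass the interaction test (limma adjusted p = 0.381), with differences of 0.60 (95% interval -0.16 to 1.36) between HCT116 and SiHa and 0.15 (-0.75 to 1.05) between FaDu and SiHa. The F-test of SLC16A1 was lost without HCT116 pH 6.5 replicate 1 (limma adjusted p = 0.142). That of EMB reached 0.0502 and 0.0509 in limma without FaDu pH 6.5 replicates 2 and 3, and 0.168 by edgeR with all kept libraries.

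Between lines at 1 pH, most of the 9 genes differed, as did most of all genes tested. Limma called 14542 of 20178 genes for HCT116 against SiHa at pH 7.4. At pH 6.5 it called 14649 of 19879 for FaDu against SiHa and 13440 of 20171 for HCT116 against FaDu. At pH 7.4, HCT116 exceeded SiHa in LDHB (log2 difference 2.02 ± 0.17, 4.06-fold, limma adjusted p = 1.26e-09) and was lower in LDHA (-0.92 ± 0.24), BSG (-0.82 ± 0.18), MPC1 (-1.30 ± 0.11) and MPC2 (-0.99 ± 0.11). SLC16A1 was higher by 0.35 ± 0.10 (limma adjusted p = 0.00381), but scaling by total reads, which moved the median of all genes from 0.0056 to -0.167, left 0.17 (limma adjusted p = 0.114). In that scaling SLC16A3, at -0.25 (limma adjusted p = 0.186), became -0.42 (limma adjusted p = 0.0125). In all, 4 genes were higher and 4 lower, the higher including EMB and SLC16A7, against 36.5% and 35.6% of all genes.

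At pH 6.5, where both had 5 libraries, FaDu exceeded SiHa in LDHB (0.99 ± 0.15) and SLC16A1 (1.12 ± 0.09) and was lower in SLC16A3 (-2.26 ± 0.14, 0.209-fold, limma adjusted p = 7.36e-12), LDHA (-1.11 ± 0.21), BSG (-0.95 ± 0.16) and MPC2 (-0.53 ± 0.09). EMB and SLC16A7 were also higher in FaDu, so 4 were higher and 4 lower, beside 39.2% and 34.5% of all genes. HCT116 exceeded FaDu at pH 6.5 in SLC16A3 (1.27 ± 0.19) and LDHA (0.79 ± 0.28) and was lower in SLC16A1 (-1.24 ± 0.11), MPC1 (-1.27 ± 0.13) and MPC2 (-0.73 ± 0.12). No other member passed there, where the background was 32.5% higher and 34.1% lower. The LDHA difference was lost without HCT116 replicate 1 (limma adjusted p = 0.0953), and without FaDu replicate 1 LDHB (0.57, limma adjusted p = 0.00322) and BSG (0.49, limma adjusted p = 0.0211) were also higher. By group mean, SiHa held the most LDHA and SLC16A3 and FaDu the most SLC16A1 at each pH, although SLC16A3 did not pass between HCT116 and SiHa at pH 7.4. HCT116 against SiHa at pH 6.5 was not tested, nor was FaDu, with 1 library, against either line at pH 7.4. For LDHA at pH 6.5, HCT116 (34038 and 31998) and FaDu replicate 1 (35381) lay inside the SiHa range of 30889 to 50373.

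Levels of different genes were set against each other per kb of annotated exon, which counts every annotated exon and so understates genes with long exons that a line does not use. At pH 7.4 the order of mean levels in SiHa was LDHA (12283 normalised counts per kb), BSG (8622), LDHB (4307), SLC16A3 (1173), SLC16A1 (1110), MPC1 (658) and MPC2 (540), with SLC16A7 at 0.224 and EMB at 0. SLC16A3 and SLC16A1 overlapped, and the other neighbours above SLC16A7 did not. At pH 6.5 BSG (8658) overlapped LDHA (6728), and LDHA overlapped LDHB (5758). In HCT116 at pH 7.4 LDHB led with 17548, followed by LDHA (6573) and BSG (4934), which overlapped, then SLC16A1 (1413), SLC16A3 (986), MPC2 (273) and MPC1 (268), which overlapped, EMB (185) and SLC16A7 (15.6). At pH 6.5 its order was LDHB (14928), BSG (5744) and LDHA (5317), which overlapped, SLC16A1 (1021), SLC16A3 (604), MPC1 (263) and MPC2 (224), which overlapped, EMB (172) and SLC16A7 (8.65). In FaDu at pH 6.5 LDHB led with 11589. BSG (4555) overlapped LDHA (3305), and LDHA overlapped SLC16A1 (2423). MPC1 (631) came next, then MPC2 (371), which overlapped SLC16A3 (261), and SLC16A3 overlapped EMB (196). SLC16A7 (13.1) was lowest. Its single library at pH 7.4 gave LDHB 19398, BSG 6353, LDHA 5134, SLC16A1 2160, MPC1 748, EMB 564, SLC16A3 482, MPC2 353 and SLC16A7 13.7.

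The genes most like each member were found over the 21 kept libraries. By Pearson's r of log2 values among 14906 genes, the closest were PSMA4 (0.929) and PPP2R1B (0.925) for LDHA, RCN1P2 (0.976) and EIF2A (0.974) for LDHB, NSMAF and LXN (both 0.972) for SLC16A1, and SMOX (0.980) and RHOA (0.976) for SLC16A3. They were LAD1 (0.993) and KAZN (0.991) for SLC16A7, GNAI2 (0.959) and HM13 (0.950) for BSG, LRIF1 (0.997) and MYOM2 (0.996) for EMB, TRPS1 and C9orf64 (both 0.983) for MPC1, and EFNA1 (0.973) and PDRG1 (0.970) for MPC2. Among the members, r was 0.980 between EMB and SLC16A7, both near 0 in SiHa, 0.855 between LDHA and SLC16A3, 0.838 between MPC1 and MPC2, -0.331 between LDHA and LDHB and -0.809 between SLC16A3 and SLC16A1. The 21 points share 3 lines, so these values describe line differences as much as pH, and no test was made.

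Related rows of the table held few counts beside LDHA and LDHB and more beside EMB. Reads left out of both rows, if any, cannot be seen here. The 5 LDHA pseudogenes summed to 0.369 to 1.25% of the LDHA count in the kept libraries, 3 LDHB pseudogenes to 0.0251% at most, and EMBP1 to 2.74 to 12.3% of EMB, so reads could be shared between EMB and its copy. The strand setting of the counting is not given in the sources used here, and the antisense rows SLC16A1-AS1 (0.541 to 3.88% of SLC16A1) and BSG-AS1 (up to 0.452% of BSG) could not be told apart from their partners if strand was ignored.

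Other genes that make, burn or move pyruvate were read from 7 lists holding 72 matched genes. In SiHa 65 were tested, of which 7 were higher and 19 lower, where 15.0% of all genes were higher and 16.2% lower. In HCT116 62 were tested, with 7 higher and 6 lower against a background of 9.11% and 11.1%. In FaDu 64 were tested, of which 4 were lower and 0 higher (background 3.12% and 4.24%); at an unadjusted p under 0.05 limma gave 6 higher there, and edgeR called 0 and DESeq2 3 higher. Without FaDu pH 6.5 replicate 1, limma called 10 of them higher and 21 lower, beside 17.8% and 18.7% of all genes. These shares are the background of every list count that follows.

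Glucose uptake and glycolysis, the source of pyruvate, had 2 of 18 tested genes higher and 6 lower in SiHa, with a median of -0.21 beside -0.01 over all genes; 15.0% of all genes were higher there and 16.2% lower. HK2, the hexokinase induced in many tumours, ran from 553 to 813 at pH 6.5 and from 1034 to 1259 at pH 7.4 (-0.70 ± 0.13, limma adjusted p = 0.00296). The glucose transporter SLC2A1 ran from 3681 to 5648 in SiHa at pH 6.5 and from 5905 to 8341 at pH 7.4 (-0.50 ± 0.16, limma adjusted p = 0.0325), and PKM, the pyruvate kinase that makes the substrate of lactate dehydrogenase, from 114330 to 173657 and from 199535 to 240521 (-0.52 ± 0.15, limma adjusted p = 0.0251). These 2 genes fall outside the naming rule and were chosen after their values were seen. The aldolase gene ALDOC (745 to 1636 against 450.1 to 678, 0.79 ± 0.25, limma adjusted p = 0.0338) and the enolase gene ENO2 (287 to 751 against 194 to 263, 0.80 ± 0.27, limma adjusted p = 0.0414) were higher in SiHa. The ALDOC call was lost without pH 6.5 replicate 4 or any 1 library at pH 7.4, and that of ENO2 also without pH 6.5 replicate 6. In HCT116 2 of 19 were higher and 1 lower, with a median of -0.01. There ENO2 was 1599 and 2154 against 739 to 941 (1.08 ± 0.16, limma adjusted p = 0.000573), a call lost with all libraries as labelled. The glucose transporter genes went opposite ways in HCT116. SLC2A3 was 111 and 226 against 34.2 to 92.1 (1.48 ± 0.40, limma adjusted p = 0.0232), lost without pH 6.5 replicate 3, with no filter, in 1 fit over 21 libraries and with all libraries as labelled. SLC2A1 was 4188 and 4467 against 5686 to 12557 (-1.05 ± 0.25, limma adjusted p = 0.0124), lost without either acidic library. In FaDu 1 of 19 was lower, SLC2A1 at 10223 to 15316 against 22371 (-0.96 ± 0.22, limma adjusted p = 0.0444), a call lost without any of replicates 2 to 5 and with no filter, and the median was -0.25; without replicate 1, 8 were lower and 1 higher, with PKM at a mean of 36948 against 115422 (-1.65 ± 0.13, limma adjusted p = 0.000284).

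Among enzymes at the pyruvate branch point, pyruvate carboxylase (PC), which feeds the citric acid cycle from pyruvate, was lower at pH 6.5 in both SiHa and HCT116. It ran from 3520 to 4035 against 6470 to 6965 in SiHa (-0.82 ± 0.08, limma adjusted p = 8.13e-05). In HCT116 it was 479 and 552 against 976 to 1664 (-1.21 ± 0.19, limma adjusted p = 0.00104). Neither pair of groups overlapped, and both calls held without any single kept library. In HCT116 with all libraries as labelled the change was 0.30, which was not called. The list had 1 of 7 higher and 2 lower in SiHa, 2 of 6 lower in FaDu and 2 of 6 lower in HCT116, with medians of -0.27, -0.33 and -0.36. PCK2, the mitochondrial phosphoenolpyruvate carboxykinase, was higher in SiHa and lower in FaDu, a difference between lines that was not tested: it was 1139 to 2015 against 872 to 1095 in SiHa (0.72 ± 0.17, limma adjusted p = 0.0105) and 947 to 1350 against 4019 in FaDu (-1.91 ± 0.19, limma adjusted p = 0.00811). Leaving out any 1 library (in FaDu, any 1 at pH 6.5) kept both calls, and the FaDu call was lost with all libraries as labelled. The malic enzymes, which make pyruvate from malate, gave 2 further lower calls: ME3 at 89.7 to 187 against 266 to 272 in SiHa (-1.02 ± 0.21, limma adjusted p = 0.0044) and ME1 at 2512 and 3331 against 4011 to 5992 in HCT116 (-0.81 ± 0.17, limma adjusted p = 0.00637). The ME1 call was lost without pH 6.5 replicate 3 and with all libraries as labelled. GPT2, an alanine aminotransferase, was 2893 to 3379 against 5218 in FaDu (-0.76 ± 0.12, limma adjusted p = 0.0208), lost without any of replicates 2 to 5 and with all libraries as labelled.

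Of the pyruvate dehydrogenase complex and its regulators, which commit pyruvate to oxidation, 1 of 11 was higher and 1 lower in SiHa and 1 of 12 higher in HCT116. PDP1, a phosphatase that activates the complex, was 1039 to 2139 against 550.5 to 805 in SiHa (1.06 ± 0.22, limma adjusted p = 0.0057). DLD, the subunit that the complex shares with other dehydrogenases, was 3056 to 4439 against 5158 to 5851 in SiHa (-0.45 ± 0.12, limma adjusted p = 0.0183), lost without pH 7.4 replicate 4 or 5. PDHX, a structural subunit, was 2005 and 2327 against 1169 to 1388 in HCT116 (0.79 ± 0.13, limma adjusted p = 0.00138), a call lost with all libraries as labelled. The medians were -0.11 in SiHa, 0.11 in FaDu and 0.13 in HCT116. NADH shuttles, which compete with lactate dehydrogenase for cytosolic NADH, had 1 of 9 higher and 2 lower in SiHa and 1 of 9 higher in HCT116. SLC25A11, the malate and oxoglutarate exchanger, was the gene higher in both, at 0.45 ± 0.09 in SiHa (limma adjusted p = 0.00482) and 1.16 ± 0.16 in HCT116 (limma adjusted p = 0.000482). SLC25A12, the aspartate and glutamate carrier, was 462 to 629.9 against 1029 to 1142 in SiHa (-0.93 ± 0.12, limma adjusted p = 0.00045), and MDH1, the cytosolic malate dehydrogenase, was 4229 to 4982 against 5554 to 6346 (-0.38 ± 0.09, limma adjusted p = 0.00773).

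Of the other SLC16 genes and carrier partners, 2 of 11 were higher and 4 lower in SiHa, 1 of 12 was lower in FaDu, and 2 of 10 were higher and 1 lower in HCT116. The medians were -0.30, 0.22 and -0.20. SLC16A10, an aromatic amino acid transporter, was 11.2 to 20.7 against 78.4 to 88.0 in SiHa (-2.46 ± 0.26, limma adjusted p = 0.000139), and SLC16A9 was 152 to 298 against 547 to 596 (-1.29 ± 0.21, limma adjusted p = 0.00127). SLC5A12, a sodium-coupled lactate carrier, was 40.1 to 106 against 142 to 209.8 in SiHa (-1.20 ± 0.33, limma adjusted p = 0.0185), lost without pH 7.4 replicate 1 or 4. SLC16A6 was 124 and 155 against 51.6 to 66.2 in HCT116 (1.27 ± 0.23, limma adjusted p = 0.00254); with all libraries as labelled it was -0.73, which was not called, and the call was also lost in 1 fit over 21 libraries. SLC16A14 was 230.4 and 287 against 75.2 to 162 in HCT116 (0.98 ± 0.28, limma adjusted p = 0.029), lost without either acidic library or pH 7.4 replicate 7 and with no filter. SLC16A11 was 13.7 and 14.9 against 26.1 to 42.4 (-1.01 ± 0.32, limma adjusted p = 0.0455), lost without any 1 library, with no filter, in 1 fit over 21 libraries, with scaling by total reads and by edgeR and DESeq2. In FaDu the lower gene was NPTN, a basigin relative, at 3477 to 4832 against 7196 (-0.93 ± 0.19, limma adjusted p = 0.0365), lost when any of replicates 2 to 5 was left out, with no filter and with all libraries as labelled. Among the remaining lactate dehydrogenase genes the only call was LDHD, the D-lactate dehydrogenase, at 235 and 329.6 against 122 to 205 in HCT116 (0.80 ± 0.24, limma adjusted p = 0.0333), lost without pH 6.5 replicate 1 or pH 7.4 replicates 5 or 7, with no filter, in 1 fit over 21 libraries and with all libraries as labelled; 3 of the 4 were tested in SiHa, 2 in FaDu and 1 in HCT116.

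Of the regulators of lactate metabolism, 4 of 6 were lower and none higher in SiHa, with a median of -0.80 beside -0.01 over all genes; 16.2% of all genes were lower there and 15.0% higher. MYC, which is known to activate LDHA and SLC16A1, was 1390 to 2143 against 2996 to 3919 (-1.03 ± 0.14, limma adjusted p = 0.00056). PPARGC1A, a coactivator known to favour LDHB over LDHA in muscle, was 41.8 to 143 against 476 to 667 (-2.64 ± 0.35, limma adjusted p = 0.000453), and its partner ESRRA was 585 to 767 against 1296 to 1505 (-1.08 ± 0.11, limma adjusted p = 0.000123). All 3 were called without any single library. In HCT116 2 of 5 were lower: HIF1A at 4137 and 4783 against 5780 to 7377 (-0.54 ± 0.13, limma adjusted p = 0.0114, lost without pH 6.5 replicate 1) and EPAS1 at 2651 and 2774 against 3615 to 4172 (-0.53 ± 0.12, limma adjusted p = 0.00693). With all libraries as labelled HIF1A was 1.39 and EPAS1 0.08 in HCT116, neither called. These transcripts do not show the level of HIF proteins, which is set mainly by degradation. In FaDu none of 5 was called, with a median of -0.07, and limma without replicate 1 called 2 lower.

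**Figure D4:**
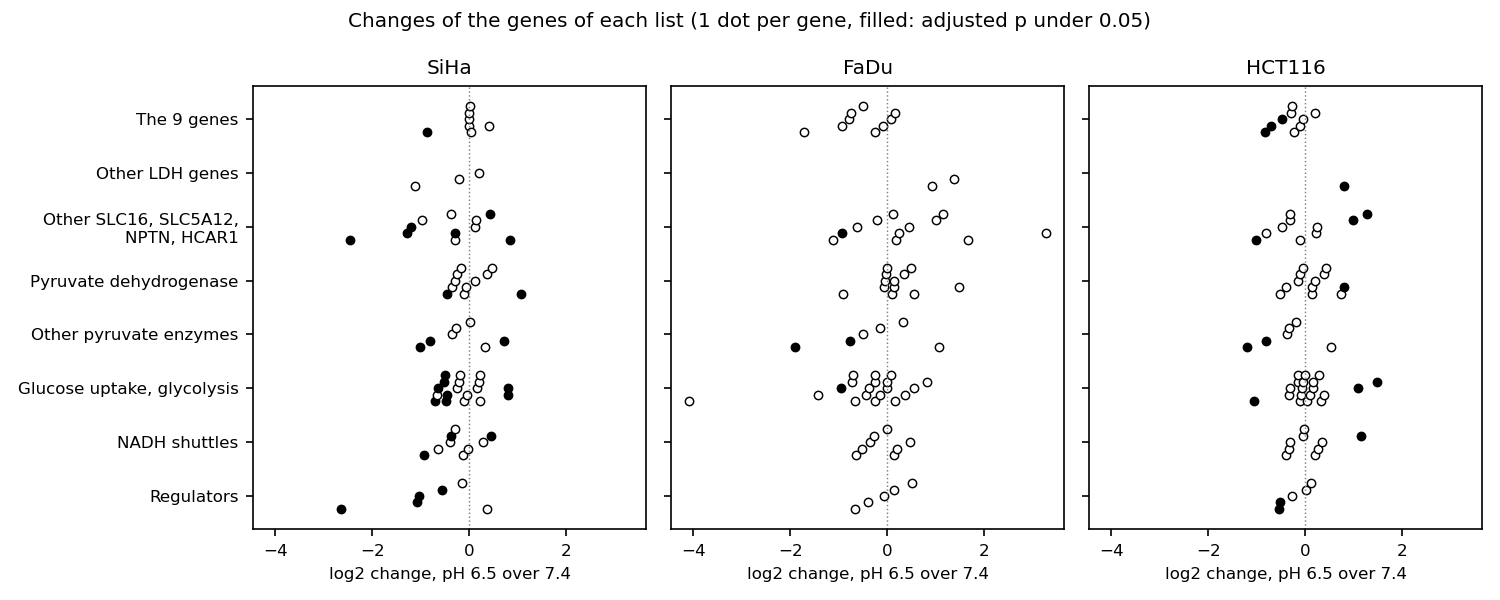
Log2 change at pH 6.5 over pH 7.4 (horizontal axis) of each tested gene of the 9 members and of the 7 other lists, in SiHa, FaDu and HCT116 with the kept libraries; each dot is 1 gene, and filled dots have a limma adjusted p under 0.05. In SiHa the regulators sit to the left with a median of -0.80, while most members sit near 0.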

How the data were processed

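The deposited table held 1 value per gene and library for 30 libraries. Per the submitters' processing notes, the tools were DESeq2 1.22.2, STAR 2.6.1d with GRCh37, Trimmomatic 0.38, FastQC and bcl2fastq 2.20. What counted the reads, with which strand setting and annotation, is not given in the sources used here. Values as deposited by the authors are a signal, read counts divided by a size factor per library: 100.0% of them were whole multiples, within 0.01, of what 1 read is worth. Symbols were matched to 35466 of 38122 identifiers, and SLC5A8, PECAM1 and ADIPOQ had no match.

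In each line, limma 3.58.1 (R 4.3.3, intensity trend) compared log2(value + 1) between pH levels for genes whose mean reached 10 in either group, 2-sided, with Benjamini-Hochberg adjustment over all genes. Fold changes are on that scale and understate low genes. Libraries set apart were left out. The interaction and line differences came from 1 limma fit over the 21 kept libraries, as did the F-test. Alternatives were edgeR 4.0.16 and DESeq2 1.42.0 on the recovered reads, all libraries as labelled, a pseudocount of 5, no filter, scaling by total reads, 1 fit over 21 libraries, a replicate block and each library left out. On recovered reads edgeR called 2912 genes higher and 2965 lower in SiHa, 599 and 769 in FaDu and 2068 and 1848 in HCT116. The scripts were tested on simulated data. Other software was Python 3.11.15 with pandas 2.3.3, numpy 2.4.6 and matplotlib 3.10.9.

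The members and lists were chosen with earlier results of these data known. The text names all 9 members, up to 3 called genes per list and line by size of change, and the 2 genes most like each member among those with a mean of at least 100 in some group. Exon lengths came from GENCODE (GRCh38), a build other than the authors', and promoter sequences from RefSeq. A gene of 1 list is not reported here.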

Additional observations from a re-analysis of the deposited data

Results flagged for a closer look

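A check of single libraries for a wide gap from the rest of their group was made in 25 groups of 5 libraries, where chance alone would pick out about 1 in 20. It picked out FaDu pH 6.5 replicate 1 for 4 genes, each time as the highest of 5. The gap to the next library took 0.76 of the whole range for LDHB (52491), 0.833 for SLC16A3 (3877), 0.82 for BSG (25372) and 0.875 for EMB (2276). The 4 values came from 1 library and are not independent.

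The pH effect differed between lines by limma's F-test for LDHB (adjusted p = 0.0156), SLC16A1 (limma adjusted p = 0.0195), SLC16A3 (limma adjusted p = 0.0202) and EMB (limma adjusted p = 0.0301). The same test called 33.1% of all tested genes, and its FaDu part rests on 1 library at pH 7.4. The SLC16A1 call was lost without HCT116 pH 6.5 replicate 1, and the EMB call was lost by edgeR. SiHa had no EMB reads. Both HCT116 libraries at pH 6.5 lay below all 5 at pH 7.4 for SLC16A3 and SLC16A1, while the SiHa groups overlapped for both genes.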

How the results depend on the processing

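Results are given with the 9 libraries set apart left out. The FaDu comparison depended most on the libraries used. With all libraries as labelled it had 4727 genes higher and 4388 lower and 2 members higher and 5 lower, against 812, 599, 0 and 0. DESeq2 gave 1363 genes higher and 1296 lower, no filter gave 479 higher, and 1 fit over 21 libraries gave 1391 lower and 2 members lower. The share of higher calls was 57.5%, and 38.8% with no filter, 43.8% by edgeR and 46.4% in 1 fit. Leaving out 1 FaDu library moved the genes higher between 38 and 3430, the genes lower between 28 and 3609 and the members lower between 0 and 5, the highest values being those without pH 6.5 replicate 1 and the lowest gene counts those without replicate 4 (256 and 128 without replicate 2, 45 and 29 without replicate 3, 220 and 120 without replicate 5); the cause was not tested. In HCT116, leaving out 1 library moved the genes higher between 850 and 2427, the genes lower between 1348 and 2723 and the members lower between 1 and 3, the lowest of each without pH 6.5 replicate 1. In SiHa it moved the genes higher between 1736 and 3088, the genes lower between 1815 and 3385 (the lowest of both without pH 7.4 replicate 5, and 1923 lower without replicate 1) and the members higher between 0 and 1 (LDHB, without pH 6.5 replicate 7), and 1 member (LDHB) was higher as labelled, by edgeR and by DESeq2. Between lines, leaving out 1 library moved the members higher in HCT116 than in FaDu between 1 and 4 and the members passing the interaction test between 3 and 4; these runs were chosen after seeing the data.

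No label says that same-numbered libraries share more than a number. Deviations from the group means correlated across genes at 0.316, 0.0478 and 0.079 for SiHa replicates 1, 4 and 5. They correlated at 0.173 and 0.0553 for HCT116 replicates 1 and 3. Pairs with unlike numbers ran from -0.255 to 0.128 in SiHa and from -0.173 to 0.115 in HCT116. Only 2 HCT116 libraries were kept at pH 6.5, so their deviations mirror each other. The HCT116 values therefore come in pairs of opposite sign, and the unlike pairs there are no separate comparison. Whether same-numbered libraries share a source was not tested. With a replicate block, SiHa had 1 member higher (LDHB, 0.57, limma adjusted p = 0.00284) and HCT116 1145 genes higher and 1 member lower (SLC16A3), so that the calls of SLC16A1 (-0.42, limma adjusted p = 0.148) and SLC16A7 (-0.65, limma adjusted p = 0.159) were lost. With the block and all libraries as labelled, FaDu had 4502 genes higher, 4349 lower, 3 members higher and 5 lower, SiHa had 1 member higher, and HCT116 had 593 genes higher, 814 lower and 0 members lower, where HCT116 without the block had 2 lower and limma's SLC16A1 stood at an adjusted p of 0.0611. With the block and the kept libraries, the HCT116 calls of LDHD, SLC16A11 and SLC2A3 were also lost. No block could be fitted in FaDu with the kept libraries, which share 1 number.

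Some directions turned. As labelled, with and without the block, MPC1 was 0.52 in FaDu and 0.62 in HCT116, MPC2 0.28 in HCT116, and BSG 0.08 and MPC1 -0.02 in SiHa. In the same setting HCT116 gave SLC16A6 -0.73, PC 0.30, SLC2A3 -0.57, HIF1A 1.39 and EPAS1 0.08. With the block and the kept libraries, LDHA was 0.04 and BSG -0.02 in HCT116, and SLC16A1 0.00, BSG 0.12, MPC1 -0.02 and MPC2 0.04 in SiHa. MPC1 was 0.02 in HCT116 with scaling by total reads. SLC16A1 was 0.01 and BSG 0.02 in SiHa by edgeR, and BSG 0.00 by DESeq2. Leaving out 1 library, log2 changes in SiHa ran from -0.08 to 0.07 for BSG, -0.03 to 0.04 for MPC1, -0.06 to 0.03 for MPC2, -0.07 to 0.05 for SLC16A1 and -0.02 to 0.08 for SLC16A3, and in HCT116 from -0.07 to 0.50 for BSG, -0.24 to 0.02 for EMB and -0.26 to 0.18 for MPC1. Of 34 named genes of the other lists, 20 stayed called without any single library and 14 under every setting. By line, 13 of 17 in SiHa, 1 of 13 in HCT116 and 0 of 4 in FaDu stayed called under every setting. These settings include all libraries as labelled, and so the FaDu and HCT116 libraries that carried genes of another line. Depth limits EMB and SLC16A7 in SiHa, where levels under 2.56 to 4.2 normalised counts cannot be seen.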
